A study of Mus musculus with 3 samples.

Results

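The helix-loop-helix regulators of this report are 3 Id genes (Id1, Id2 and Id3) and the 3 genes of the E proteins (Tcf3, Tcf4 and Tcf12). They were taken by name, through every probe set whose single gene symbol is 1 of the 6. That gave 19 probe sets of the 45037 that were not array controls, and 6 of the 18193 named genes. Entrez identifiers set Tcf3 and Tcf4 apart from Tcf7l1 and Tcf7l2, which have gone by the same names in the Wnt literature.

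RNA came from CD4+CD25- T cells of spleen and lymph node. The mice were female Stat6/T-bet double knockout animals on the BALB/c background, aged 6 to 8 weeks, so every culture lacked Stat6, on which IL-4 signalling relies, and T-bet, which sets up Th1 cells. Activation lasted 2 days in every culture, on antibodies to CD3 (5 µg/ml, bound to the plate) and to CD28 (1 µg/ml). One culture received 5 ng/ml TGFβ, another 10 ng/ml each of IL-6 and IL-23, and the last one 10 ng/ml IL-6 and 5 ng/ml TGFβ. Each culture was measured on 1 Affymetrix array, with no wild-type control and no replicate, so there are no p-values, and differences between cultures, mice and arrays cannot be told apart from those of the cytokines. Whether animals were pooled is not given in the sources used here.

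E proteins are transcription factors that pair through a helix-loop-helix and bind DNA at E boxes through an adjoining basic region. Id proteins have the helix-loop-helix but lack the basic region, so an E protein paired with an Id protein cannot bind an E box. In T cells the balance of both groups is known to steer thymic development, regulatory and follicular helper fates and effector differentiation. Id genes are classic targets of BMP and Smad signalling, and Id3 is also induced by the T cell receptor through the Erk kinases and Egr factors.

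The DNA just before the start sites of Id2 and Id3 is shown because these are the members with the largest differences between cultures. Promoter entries were found for 4 of the 6 members, and the windows below are the 250 bases before the RefSeq start, on GRCm38.p6. That of Id2 is chr12:25096093-25096342 on the minus strand and that of Id3 is chr4:136143572-136143821 on the plus strand. Capitals mark an E box (CANNTG), the GC-rich motif GGCGCC known from BMP-responsive elements, and the Smad half-site GTCTG, or CAGAC on the other strand.
Id2: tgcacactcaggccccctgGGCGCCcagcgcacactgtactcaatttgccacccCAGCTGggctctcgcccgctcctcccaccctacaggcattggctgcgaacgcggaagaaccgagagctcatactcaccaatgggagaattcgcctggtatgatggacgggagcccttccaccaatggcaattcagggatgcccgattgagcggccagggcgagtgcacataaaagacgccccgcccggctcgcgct
Id3: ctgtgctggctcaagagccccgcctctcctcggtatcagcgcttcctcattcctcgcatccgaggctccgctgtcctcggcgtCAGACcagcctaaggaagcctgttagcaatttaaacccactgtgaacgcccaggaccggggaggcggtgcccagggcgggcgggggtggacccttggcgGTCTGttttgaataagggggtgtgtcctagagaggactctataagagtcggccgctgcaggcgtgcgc

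The Id2 window held 1 E box, CAGCTG, beginning 196 bases before the start, and 1 GGCGCC beginning 231 bases before it. The Id3 window held no E box and 2 Smad half-sites, beginning 167 and 68 bases before the start. Over 32851 promoter windows of the same length, searched on both strands, 66.2% held an E box, 42.2% held GTCTG and 9.59% held GGCGCC. The STAT motif TTCNNNGAA, held by 7.02% of windows, and the Egr motif GCGTGGGCG, held by 0.536%, were in neither window. CAGGTG, a form of E box counted above, was in neither window and in 17.2% of all windows. These are matches of letters and were not tested as binding sites.

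The deposited intensities differed between arrays, with medians of 35.8 for TGFβ, 17.8 for IL-6/IL-23 and 28.1 for IL-6/TGFβ, and were quantile-normalized. A floor was set at 65.4 normalized units from genes of unrelated tissues, and 35.5% of probe sets were above it on each array. That this share is the same on each array follows from the quantile normalization. All 12 measured T cell markers were above the floor on all 3 arrays. No measured B cell marker (0 of 9) or gamma-delta T cell marker (0 of 3) was above it, and neither was Siglech of plasmacytoid dendritic cells. Above it on at least 1 array were 2 of 2 CD8 T cell markers, 2 of 7 NK and innate lymphoid markers, 2 of 7 of plasmacytoid dendritic cells, 2 of 9 myeloid markers, 1 of 5 of erythroid cells and platelets and 1 of 6 stromal markers. The deleted genes still gave signal, Stat6 at 259, 191 and 223 and Tbx21 (T-bet) at 190, 205 and 118 with TGFβ, then IL-6/IL-23, then IL-6/TGFβ. Which parts were deleted is not given in the sources used here, so this is no check of the genotype. Of the genes in the study's question, Il17a read 498 with TGFβ, 3273 with IL-6/IL-23 and 3211 with IL-6/TGFβ, and Il10 read 62.8, which is below the floor, 240 and 1012.

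**Figure D1:**
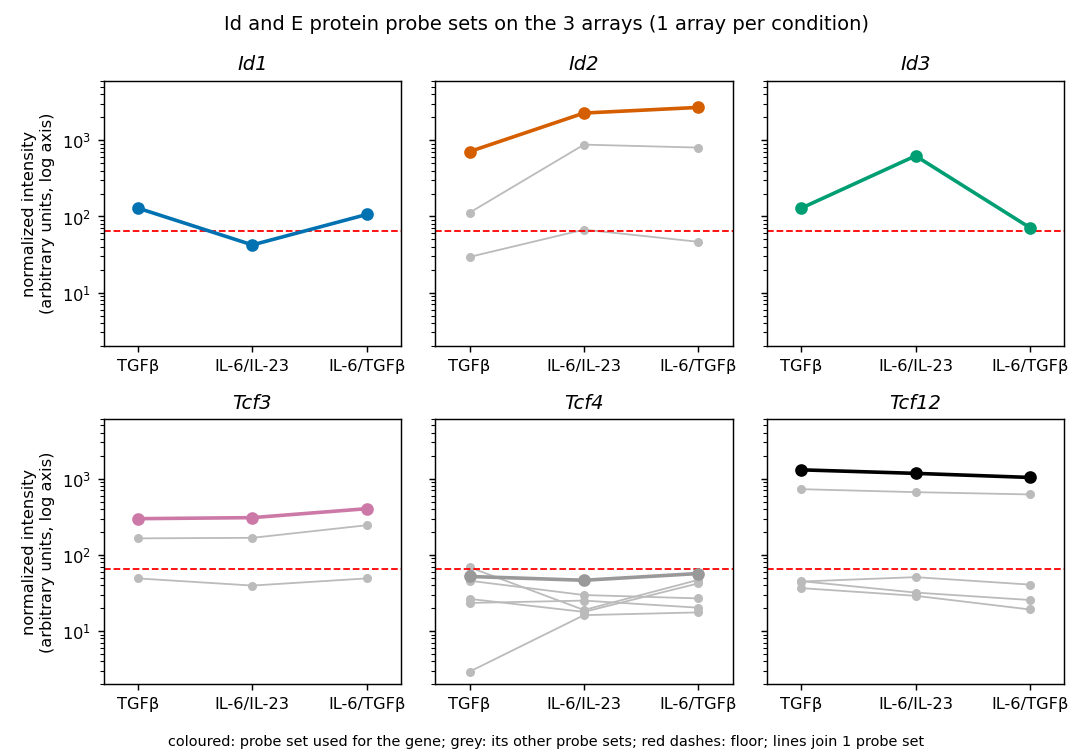
Normalized intensity (arbitrary units, log axis) of every probe set of the 6 members on the 3 arrays, 1 array per condition. Id2 is higher on both arrays with IL-6, Id3 peaks at 625 with IL-6/IL-23, and Id1 is below the floor of 65.4 (dashes) there. The probe sets of Tcf3 and Tcf12 differ by less than 2-fold between arrays.

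Id2 was higher in both cultures that held IL-6, and Id3 was high with IL-6/IL-23 alone. Id1 was below the floor with IL-6/IL-23, where Id3 was highest. By their brightest probe sets, the E protein genes Tcf3 and Tcf12 differed by at most 1.35-fold between any 2 arrays after normalization. A further Tcf3 probe set differed by up to 1.49-fold. Of the 19 probe sets, 10 were above the floor on at least 1 array and 7 on all 3. A gene is given by its brightest probe set over the 3 arrays, and is counted as higher or lower where 2 arrays were at least 2-fold apart with the brighter one above the floor. Levels below are normalized intensities, given for TGFβ first, then IL-6/IL-23, then IL-6/TGFβ, and cannot be compared between genes.

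Among the inhibitors, Id2 encodes the Id protein known from innate lymphoid cells and effector T cells. It read 710, 2279 and 2704. The TGFβ array was the low one, and the 2 arrays with IL-6 were within 1.19-fold of each other. Its log2 ratio was 1.93 for IL-6/TGFβ relative to TGFβ and 1.68 for IL-6/IL-23 relative to TGFβ. In those comparisons 54 of 8883 genes and 104 of 8947 genes had larger ratios. The second ratio was 0.80 without scaling, which is under the 2-fold rule.

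A further Id2 probe set read 112, 878 and 803, with log2 ratios of 2.84 and 2.97 in the same 2 comparisons. Both probe sets thus had the same low array, with differences of unlike size. For IL-6/TGFβ relative to IL-6/IL-23 they had opposite signs, at 0.25 and -0.13, so the order of the 2 arrays with IL-6 is not settled. The remaining Id2 probe set read 29.4, 67.2 and 46.5, above the floor on 1 array only.

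How closely probe sets of 1 gene agree is the only error that 1 array per condition allows. The SD of the log2 ratio of a single probe set, over 3419 genes with at least 2 probe sets above the floor, was 0.22 for IL-6/TGFβ relative to TGFβ, 0.29 for IL-6/TGFβ relative to IL-6/IL-23 and 0.30 for IL-6/IL-23 relative to TGFβ. It leaves out all differences between cultures, mice and arrays. The probe sets used for it were above the floor on all 3 arrays. The 2 such probe sets of Id2 lay much further apart than this SD. They stood at 1.93 and 2.84 for IL-6/TGFβ relative to TGFβ, and at 1.68 and 2.97 for IL-6/IL-23 relative to TGFβ.

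Id3, whose protein is known to be needed to hold T cells in the naive and regulatory states and to restrain follicular helper cells, has a single probe set. It read 128, 625 and 71.1. The IL-6/IL-23 array was far above the others, and the IL-6/TGFβ array was the lowest, just over the floor. Its log2 ratio for IL-6/TGFβ relative to IL-6/IL-23 was -3.14, or 8.79-fold lower, and 14 of 9011 genes had a lower ratio.

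For IL-6/IL-23 relative to TGFβ, Id3 stood at 2.29 (4.87-fold higher), and 39 of 8947 genes stood higher. With a single probe set, agreement between probe sets cannot be judged for Id3. Between IL-6/TGFβ and TGFβ, Id3 stood at -0.85, which is under the 2-fold rule, with the IL-6/TGFβ array just over the floor. This last call depended on the scaling: as deposited, the Id3 values were 181, 456 and 73.9, and the log2 ratio of IL-6/TGFβ relative to TGFβ without scaling was -1.29. The cultures with IL-6 differ in both TGFβ and IL-23, so neither cytokine alone can be tied to the Id3 difference.

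Id1, the founding member of the family and a classic BMP target, also has 1 probe set. It read 129, 42.3 and 106. The IL-6/IL-23 array was below the floor, and the 2 arrays with TGFβ were at similar levels. Against the floor, Id1 was lower with IL-6/IL-23 by at least 1.97-fold relative to TGFβ and by at least 1.63-fold relative to IL-6/TGFβ.

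Both bounds on Id1 lie under the 2-fold rule, and this turned on the floor. The floor list held Mbp and Tg, which read far above its other genes. Without them the floor was 40.6, Id1 was above it on every array, and its log2 ratios were -1.61 for IL-6/IL-23 relative to TGFβ and 1.33 for IL-6/TGFβ relative to IL-6/IL-23. This floor was chosen after the values were seen. Without scaling, the bound on the first of these ratios was -1.44, past the rule. The Id1 ratio was -0.28 for IL-6/TGFβ relative to TGFβ.

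Id4, the fourth Id gene, served as a relative outside the 6. Its 3 probe sets were below the floor on all 3 arrays, with normalized intensities of at most 13.2. No ratio was read for it.

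Among the E proteins, Tcf12 encodes HEB, a partner in thymocyte development. It read 1307, 1175 and 1039. A further probe set read 729, 666 and 622, with the same order of arrays. The log2 ratios of both lay between -0.33 and -0.10 in all 3 comparisons, and that of the brighter one relative to IL-6/IL-23 changed sign without scaling (0.27). As deposited, without scaling, the brighter probe set read 1796, 859 and 1034, a log2 ratio of -1.06 for IL-6/IL-23 relative to TGFβ, on arrays whose medians were 17.8 and 35.8. The other 3 Tcf12 probe sets were below the floor throughout.

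Tcf3, whose splice forms are the best known E proteins of lymphocytes, read 299, 308 and 404. A further probe set read 165, 167 and 245. In both, the IL-6/TGFβ array was the highest after normalization, whereas without scaling the brighter one was level between IL-6/TGFβ and TGFβ (-0.03). The log2 ratios of the 2 probe sets were 0.44 and 0.57 relative to TGFβ and 0.39 and 0.55 relative to IL-6/IL-23, against SDs between probe sets of 0.22 and 0.29. Neither probe set reached the 2-fold rule, and these SDs leave out all differences between cultures, mice and arrays. Between IL-6/IL-23 and TGFβ the 2 probe sets differed by 0.05 and 0.02, and the sign of this small difference turned without scaling (-0.92).

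Tcf4 encodes the E protein that plasmacytoid dendritic cells depend on. Of its 6 probe sets, 5 were below the floor on all arrays. The sixth read 68.8, 18.9 and 47.0, above the floor on the TGFβ array alone. The probe set with the highest mean read 52.1, 46.4 and 56.9. Tcf4 was therefore not measured well enough for a ratio. Tcf7l1 and Tcf7l2, the factors with the shared old names, were below the floor in all their 2 and 4 probe sets.

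Of the 6 members, 5 could be compared in each pair of arrays, and Tcf4 in none. For IL-6/TGFβ relative to TGFβ, 1 of 5 was at least 2-fold apart (Id2, higher), against 4.76% of 8883 genes (2.71% higher, 2.05% lower). It was 1 of 5 (Id3, lower) for IL-6/TGFβ relative to IL-6/IL-23, against 7.07% of 9011 genes (3.77% higher, 3.3% lower). It was 2 of 5 (Id2 and Id3, higher) for IL-6/IL-23 relative to TGFβ, against 6.73% of 8947 genes (3.48% higher, 3.25% lower). The medians of the 5 were -0.28, 0.25 and 0.05, beside 0.02, -0.04 and 0.06 over all genes tested. With 5 genes, these shares are a description and no more.

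**Figure D2:**
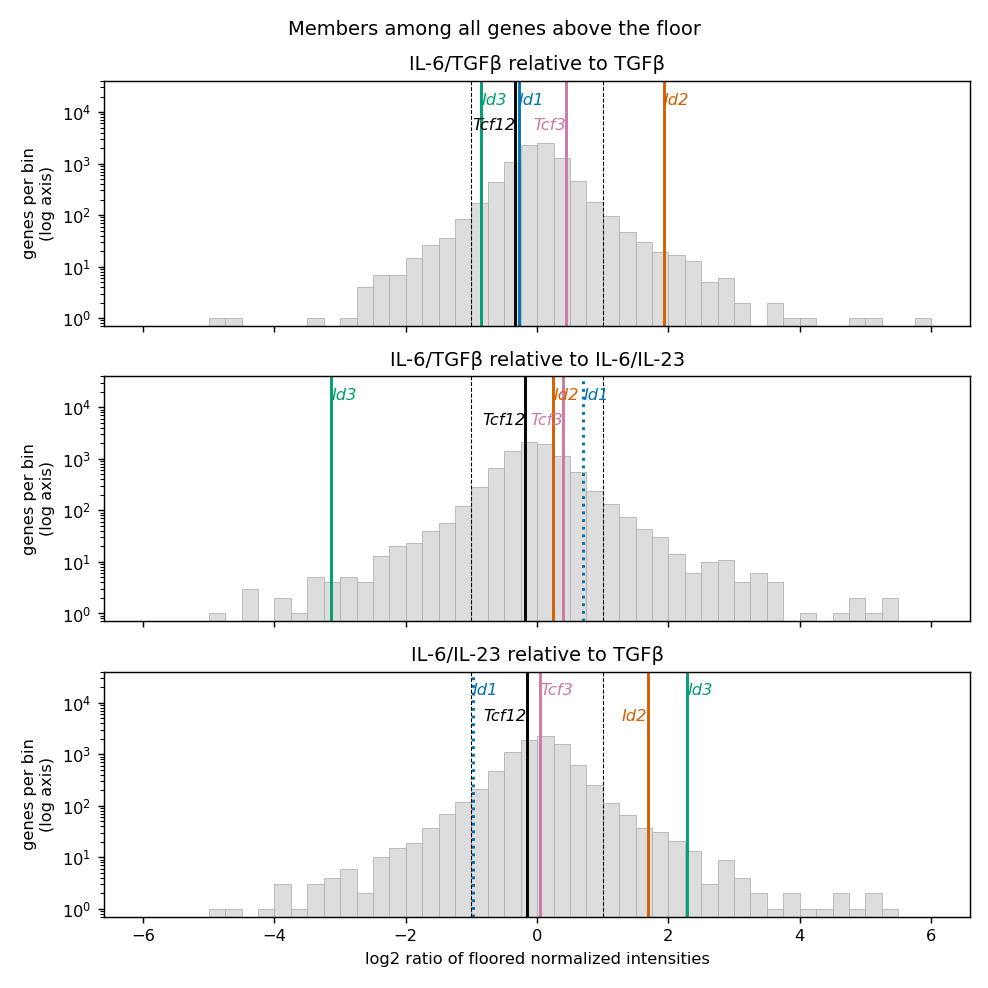
Number of genes (log axis) by log2 ratio for the 3 pairs of arrays, over genes above the floor on at least 1 array of the pair, with the members as vertical lines (dotted: a bound; dashes: 2-fold). Id3 lies at -3.14 in the middle panel and at 2.29 in the lowest, Id2 lies at 1.93 in the top panel and 1.68 in the lowest, and Tcf3 and Tcf12 lie within the bulk.

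The change of an Id signal relative to an E protein signal on the same arrays does not depend on a scaling factor per array. This holds for neither quantile normalization nor bounds set by a floor. The change was computed from deposited intensities. Relative to Tcf12, Id3 was 5.27-fold higher with IL-6/IL-23 than with TGFβ, and with IL-6/TGFβ it was 7.43-fold below its IL-6/IL-23 value. Relative to Tcf3 the same changes were 4.77-fold and 11.4-fold. The IL-6/IL-23 array thus had the highest Id3 signal per E protein signal with either gene as the base.

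Id2 relative to Tcf12 was higher than with TGFβ by 4.79-fold in the IL-6/TGFβ culture and by 3.64-fold in the IL-6/IL-23 culture. Relative to Tcf3 it was 2.82-fold and 3.30-fold higher. These changes rest on the brightest Id2 probe set, whose deposited log2 ratios relative to TGFβ were 1.46 and 0.80. Those of the further Id2 probe set were larger, at 2.33 and 2.02. Between the 2 cultures with IL-6 the Id2 change was 1.32-fold higher over Tcf12 and 1.17-fold lower over Tcf3, so its direction hung on the E protein chosen. The Id1 signal was under the floor on the IL-6/IL-23 array, so only bounds exist there, against a floor of 67.1 deposited units. Id1 was lower with IL-6/IL-23 than with TGFβ by at least 1.29-fold relative to Tcf12 and by at least 1.43-fold relative to Tcf3.

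**Figure D3:**
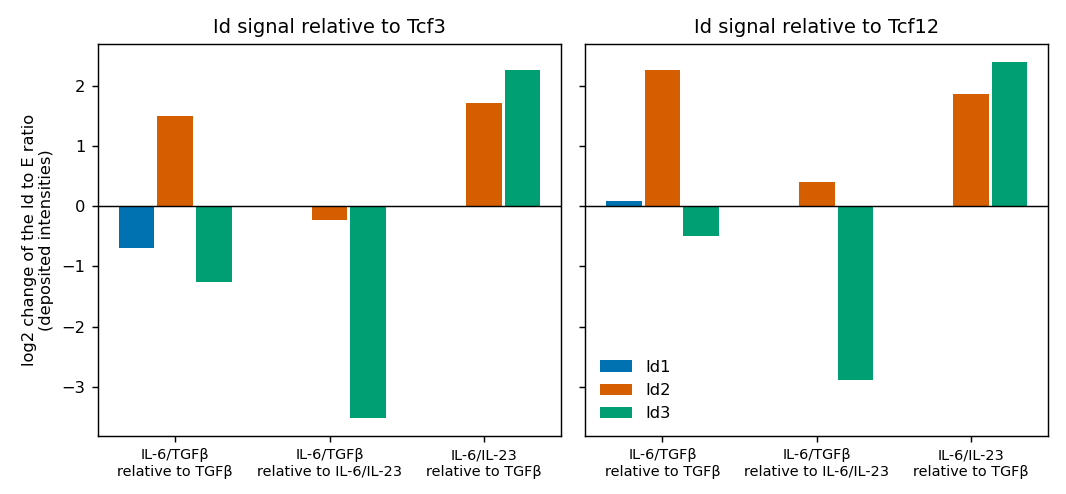
Log2 change of the deposited Id intensity over the deposited Tcf3 (left) or Tcf12 (right) intensity for the 3 pairs of arrays, with 1 array per condition and no error bars, and with Id1 shown only where it was above the floor on both arrays. Id3 changes from 2.25 or 2.40 (IL-6/IL-23 relative to TGFβ) to -3.52 or -2.89 (IL-6/TGFβ relative to IL-6/IL-23).

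The 3 comparisons share arrays and are not independent of each other. Since RNA came from whole cultures, a difference in the share of cells that express a gene and a difference in RNA per cell cannot be told apart. Cd8a, a marker of CD8 T cells, which also use Id2 and Id3, read 145, 120 and 80.2, and Cd8b1 read 140, 174 and 104. Their summed level was 285, 294 and 184. The summed level of the 7 NK and innate lymphoid markers was 198, 170 and 171, with Ncr1 at no more than 2.03 and only Eomes and Klrk1 above the floor on any array. Summed plasmacytoid dendritic cell markers read 434, 362 and 373, and summed myeloid markers 324, 188 and 240. Most genes in these sums were below the floor on every array, where values have no order. Klk1 (185, 241 and 178) was the largest part of the dendritic cell sum, which includes Tcf4 itself. Mpeg1 (153, 21.9 and 25.7) was the largest part of the myeloid sum with TGFβ. The part of these cells in the member values was not tested.

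Genes around the Id and E proteins were described through lists. Among 33 further HLH and bHLH-zipper factors and their partners, 19 could be compared in each pair. Of these, 2 were higher and 0 lower for IL-6/TGFβ relative to TGFβ, 2 higher and 2 lower relative to IL-6/IL-23, and 1 higher and 1 lower for IL-6/IL-23 relative to TGFβ. These are 10.5%, 21.1% and 10.5% of the genes compared, against 4.76%, 7.07% and 6.73% of all genes, and rest on 2, 4 and 2 genes. The medians were 0.12, 0.01 and 0.19, beside 0.02, -0.04 and 0.06 over all genes. A ratio with 1 array at the floor entered these medians at its bound. Without scaling, 0 were higher and 5 lower in the last pair, and since the median of all genes then stood at -0.42, 0.41 and -0.83, the balance of higher and lower genes in every list below depends on the scaling.

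The genes of this list that differed were mostly of the Myc and Max network, whose proteins bind E boxes without pairing with E proteins. Mxi1, a Max partner that opposes Myc, read 381, 379 and 1071, 2.81-fold higher on the IL-6/TGFβ array than with TGFβ and 2.82-fold higher than with IL-6/IL-23. Mxd1, a like Max partner, read 304, 142 and 373, and was low on the IL-6/IL-23 array. Mnt stood at 1.04 for IL-6/TGFβ relative to TGFβ. Max itself read 345, 465 and 197 (-1.24 for IL-6/TGFβ relative to IL-6/IL-23).

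Bhlhe40, a bHLH repressor of activated T cells, read 1650, 3884 and 1406. Its log2 ratios were 1.23 for IL-6/IL-23 relative to TGFβ and -1.47 for IL-6/TGFβ relative to IL-6/IL-23. Like Id3, it had its peak with IL-6/IL-23 and its lowest value with IL-6/TGFβ.

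Of 15 genes of E protein cofactors and of Id and E protein turnover, 14 could be compared, and 0 were 2-fold apart in any of the 3 pairs, where 4.76%, 7.07% and 6.73% of all genes were. With 14 genes, 0 is near those shares. Without scaling, 6 were lower for IL-6/IL-23 relative to TGFβ, and with median scaling 1 was lower for IL-6/TGFβ relative to IL-6/IL-23. Their medians were -0.07, 0.11 and -0.03. The list holds the coactivators Ep300 and Crebbp, the ETO family corepressors, and Usp1, which removes ubiquitin from Id proteins.

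Smad and BMP signalling genes are inputs to Id transcription. Of 22 compared, 7 were higher and 2 lower for IL-6/TGFβ relative to IL-6/IL-23, or 40.9% against 7.07% of all genes, with a median of 0.66 beside -0.04. For IL-6/IL-23 relative to TGFβ, 2 were higher and 4 lower of 22 (median -0.30), and for IL-6/TGFβ relative to TGFβ 3 were higher and 0 lower of 21 (median 0.21), or 27.3% against 6.73% and 14.3% against 4.76%. Without scaling, the 3 pairs in that order had 13 higher and 2 lower, 1 higher and 12 lower, and 0 higher and 1 lower. Many of these genes are known to respond to TGFβ themselves.

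Tgfbr1, the type I TGFβ receptor, read 3297, 235 and 2387. The log2 ratio was 3.34 for IL-6/TGFβ relative to IL-6/IL-23, and its 3 probe sets above the floor lay between 1.10 and 3.34. Bmpr2, the type II BMP receptor, read 678, 138 and 531, a log2 ratio of 1.95, and a further probe set gave 0.78. Both receptors were low on the IL-6/IL-23 array, as was Id1. Not every gene of the list was low there. Bmpr1a, a type I BMP receptor, read 86.2, 137 and 99.6, Smad1 read 334, 386 and 407, and Smad5 read 142, 175 and 224. A link of these genes to Id1 was not tested.

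Skil, a Smad corepressor induced by TGFβ, read 2609, 852 and 2667 (-1.61 for IL-6/IL-23 relative to TGFβ). Smad3, which carries the TGFβ signal, read 363, 442 and 856 (1.24 for IL-6/TGFβ relative to TGFβ). Acvr2a, an activin receptor, read 119, 51.6, which is below the floor, and 245 (1.05 for the same pair). Smad3 and Acvr2a were highest with IL-6/TGFβ, and Skil was at like levels on both arrays with TGFβ.

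Inhba, which encodes a subunit of activin, was high where Id3 was high. It read 55.1, which is below the floor, 1533 and 150, and was 10.2-fold below its IL-6/IL-23 level in the culture with IL-6/TGFβ. Atf3, a stress factor known to join Smad3 in repressing Id1, read 138, 416 and 85.0, a log2 ratio of -2.29 for the same pair. Both had their peak on the IL-6/IL-23 array. Of all 9011 genes compared in that pair, 3.3% were at least 2-fold lower. A link of Inhba or Atf3 to the Id genes was not tested.

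Of 21 receptor and Erk pathway genes compared, the other known input to Id3, 1 was higher and 2 lower for IL-6/TGFβ relative to TGFβ, 3 higher and 2 lower relative to IL-6/IL-23, and 1 higher and 3 lower for IL-6/IL-23 relative to TGFβ. These are 14.3%, 23.8% and 19.0% of the genes compared, against 4.76%, 7.07% and 6.73% of all genes. The medians were -0.03, -0.14 and -0.02. Without scaling, 0 were higher and 4 lower, 4 higher and 1 lower, and 0 higher and 10 lower. Dusp6, an Erk phosphatase that Erk signalling induces, read 505, 1651 and 538, with a peak on the array where Id3 peaked. Its log2 ratios were 1.71 for IL-6/IL-23 relative to TGFβ and -1.62 for IL-6/TGFβ relative to IL-6/IL-23.

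Of the Egr factors, Egr1 read 1986, 3840 and 1891 and Egr2 read 1343, 1609 and 1203, both in the order of Id3. For IL-6/TGFβ relative to IL-6/IL-23, Egr1 stood at -1.02, past the 2-fold rule, and Egr2 at -0.42. For IL-6/IL-23 relative to TGFβ they stood at 0.95 and 0.26, under the rule. Both were named outside the rule for named genes. A link of Dusp6, Egr1 or Egr2 to Id3 was not tested. Some genes of this pathway had other orders. Egr3, an early factor of receptor signalling, read 2778, 1513 and 824, highest with TGFβ. Dusp5 read 1078, 493 and 333 in the same order. Plcg1, the phospholipase of receptor signalling, read 905, 609 and 1776, and Nfatc2 read 356, 352 and 745, both highest with IL-6/TGFβ. Ets1 (-1.07) and Rasgrp1 (-1.03) were lower with IL-6/IL-23 than with TGFβ. Each has 4 probe sets above the floor, between -1.07 and -0.29 for Ets1 and between -1.39 and -0.64 for Rasgrp1, so some were under the 2-fold rule.

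Of 32 genes reported as E protein targets in lymphocytes, 20 could be compared for IL-6/TGFβ relative to TGFβ, and 7 were higher and 1 lower (median 0.18). Over IL-6/IL-23, 6 were higher and 1 lower of 20 (median 0.28). For IL-6/IL-23 relative to TGFβ, 5 were higher and 3 lower of 19 (median 0.39). These are 40.0%, 35.0% and 42.1% of the genes compared, against 4.76%, 7.07% and 6.73% of all genes. The 7 genes relative to IL-6/IL-23 became 3 of 20 with median scaling and 4 of 20 with the mean of probe sets. Without scaling, the 3 pairs had 4 higher and 4 lower, 9 higher and 0 lower, and 0 higher and 8 lower. Many of the list's genes are also known cytokine response genes, so its counts say nothing particular about E proteins.

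Cxcr5, the follicular chemokine receptor that E proteins are known to activate, was below the floor on 2 arrays (64.7 and 52.7) and read 267 with IL-6/TGFβ. It was at least 4.08-fold higher there than on either other array. Il7r, the receptor of IL-7, read 169, 447 and 676, lowest with TGFβ, as Id2 was. Socs3, the IL-6 feedback inhibitor, read 426, 1518 and 3092, and Il4ra read 313, 555 and 1160, also lowest with TGFβ.

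Within the same list, Foxp3, the factor of regulatory T cells, which E proteins and Id3 are known to influence, read 498, 22.5 and 232. With IL-6/IL-23 it was below its TGFβ level by at least 7.61-fold, on the array where Id3 was highest and Id1 was below the floor. Cdkn1a, a cell cycle inhibitor known as an E protein target, read 1939, 2828 and 1124 (-1.33 for IL-6/TGFβ relative to IL-6/IL-23). Foxo1 stood at 1.15 for that pair, and Cdk6 at 1.46 for IL-6/IL-23 relative to TGFβ.

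**Figure D4:**
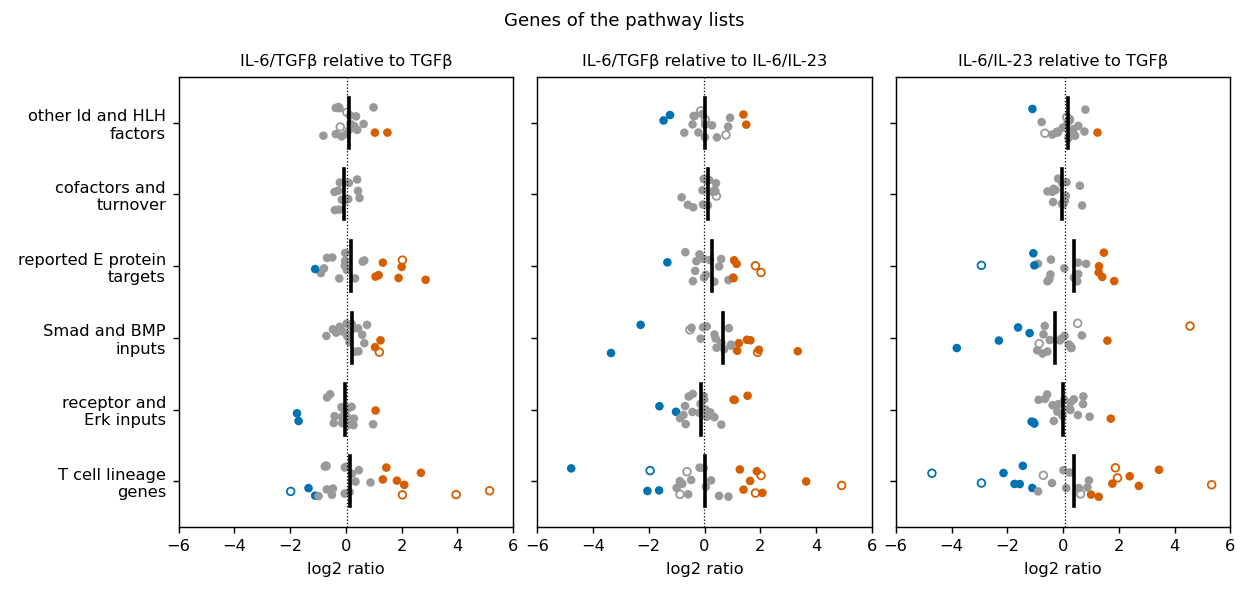
Log2 ratios of the genes in 6 lists for the 3 pairs of arrays (orange: at least 2-fold higher; blue: at least 2-fold lower; grey: neither; open: a bound; black bars: list medians; dotted line: median of all genes tested). The Smad and BMP list has its median at 0.66 for IL-6/TGFβ relative to IL-6/IL-23, and no gene of the cofactor list is 2-fold apart in any panel (all panels after quantile normalization).

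The last list held genes of T cell lineages that the Id and E protein balance is known to affect. Of 25 compared, 8 were higher and 3 lower for IL-6/TGFβ relative to TGFβ. Of 26, 9 were higher and 4 lower relative to IL-6/IL-23, and 9 higher and 7 lower for IL-6/IL-23 relative to TGFβ. These are 44.0%, 50.0% and 61.5% of the genes compared, against 4.76%, 7.07% and 6.73% of all genes. The medians were 0.13, 0.01 and 0.40. Without scaling, the 3 pairs had 6 higher and 7 lower, 11 higher and 4 lower, and 5 higher and 10 lower. Many of these genes define the cytokine responses under study, so these shares say nothing particular about E proteins.

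Gzmb, the gene of granzyme B, read 221, 2392 and 87.2, with the same order of arrays as Id3 and a log2 ratio of -4.78 for IL-6/TGFβ relative to IL-6/IL-23. Il21, a helper cytokine, was below the floor with TGFβ (10.7) and read 2626 and 2325 in the cultures with IL-6, where Id2 was high. Il9 read 1704, 40.0 and 1976, below the floor on the IL-6/IL-23 array alone, as Id1 was. Maf, a regulator of Il10, read 1031, 351 and 4388, with probe sets between 0.13 and 3.65 for IL-6/TGFβ relative to IL-6/IL-23.

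The genes whose levels over the 3 arrays were most like those of Id2 and Id3 were sought among 8066 other genes above the floor on every array. They were ranked by the distance between log2 levels, each centred on its own mean. Genes with a further probe set more than 2-fold apart in the opposite direction were skipped. For Id2 the nearest genes kept were Gypc (distance 0.18, with levels of 369, 1052 and 1177), Tiparp (0.26), Il7r (0.26), Flot1 (0.28) and Wdfy2 (0.33). Only 1 gene, Gypc, was within 0.25 of Id2. Gypc encodes a membrane glycoprotein and Tiparp a target of the aryl hydrocarbon receptor.

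No gene was within 0.25 of Id3. The nearest genes kept were Slc2a3, a glucose transporter, at 0.42 (630, 2652 and 452), Gramd1b at 0.44, the interferon-induced Ifitm2 at 0.57, Slfn2 at 0.58 and Nrn1 at 0.58. All 5 were highest with IL-6/IL-23 and lowest with IL-6/TGFβ, which follows from choosing them by likeness. With 3 arrays, such likeness describes levels and nothing more.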

How the data were processed

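The authors deposited linear intensities, 1 per probe set and array; which software, background correction and scaling they used is not given in the sources used here, beyond the labels' Affymetrix protocol. Log2 intensities were quantile-normalized (limma 3.58.1, R 4.3.3) without 64 control probe sets of 45101, which removes any difference in total mRNA. Symbols came from the platform annotation: 34945 probe sets had 1 symbol, 932 several and 9160 none; Entrez identifiers matched GRCm38.p6 RefSeq genes and changed 0 symbols. As floor served the 95th percentile of intensities over 110 probe sets of genes typical of other tissues; lower values were raised to it, giving bounds. The counting of calls was tested on simulated data. The members and lists were chosen with earlier results of these data known. Named genes were all members, Id4, Tcf7l1, Tcf7l2, Il10, Il17a, and up to 4 genes per list and pair by size among those 2-fold apart. The 5 nearest to Id2 and Id3 among the genes kept, and Egr1, Egr2, Bmpr1a, Smad1 and Smad5, were named too. Ratios of Id to E protein signal were added after the values were seen. List genes with no single-symbol probe set were not analysed here. Alternatives were median scaling, no scaling, a floor at the 90th percentile, no floor, the mean of probe sets, a 1.5-fold rule and, added later, a floor without Mbp and Tg. The number of arrays limits the precision.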

Additional observations from a re-analysis of the deposited data

How the results depend on the processing

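With 1 array per condition, no setting tests differences between cultures. Id2 and Id3 kept their directions relative to TGFβ, and Id3 relative to IL-6/IL-23, in all 6 settings tried for members (Id2 0.80 to 1.95 for IL-6/IL-23 relative to TGFβ and 1.46 to 1.93 for IL-6/TGFβ relative to TGFβ; Id3 1.33 to 2.34 for IL-6/IL-23 relative to TGFβ and -3.28 to -2.63 for IL-6/TGFβ relative to IL-6/IL-23). The Id2 value of 0.80, without scaling, is under 2-fold. Id3 has 1 probe set, above the floor on every array, so only median scaling and no scaling could move its values. The Id2 values could not be moved by the changes of floor. For IL-6/TGFβ relative to TGFβ, 1 member was 2-fold apart, and 2 without scaling (Id3 also). For IL-6/TGFβ relative to IL-6/IL-23, 1 was, and 2 with the floor at the 90th percentile, with no floor, or without Mbp and Tg in it (Id1 also). For IL-6/IL-23 relative to TGFβ, 2 higher and 0 lower became 2 higher and 1 lower under those 3 floors (Id1 lower), and 1 higher and 2 lower without scaling (Id3 higher, Id1 and Tcf12 lower). Genes 2-fold apart over the whole array, in the order IL-6/TGFβ relative to TGFβ, IL-6/TGFβ relative to IL-6/IL-23 and IL-6/IL-23 relative to TGFβ, numbered 423, 637 and 602. They were 774, 1120 and 3202 without scaling, 4136, 4849 and 4736 without a floor, and 1266, 1849 and 1682 at 1.5-fold, and list genes 24, 35 and 32 became 38, 53 and 53 without a floor and 42, 60 and 55 at 1.5-fold. Without scaling, list genes of the last pair numbered 53. Scaling also set the balance: 241 higher and 182 lower became 183 and 220 with median scaling and 119 and 655 without scaling, 340 and 297 became 258 and 434 or 996 and 124, and 311 and 291 became 351 and 287 or 74 and 3128. The median ratio of all genes then moved from 0.02, -0.04 and 0.06 to -0.08, -0.21 and 0.12, or to -0.42, 0.41 and -0.83. No paired analysis was possible because each condition has 1 array.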
